A study of Synthetic plasmid and Mus musculus with 4 samples.

Results

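Reporter activity in mouse cerebral cortex was read from a library of barcoded constructs by setting the barcode counts in RNA against the barcode counts in DNA of the same animal. The constructs described here are the 38826 of 45670 that had at least 10 counts in each of the 3 cortex DNA libraries. Each construct joins 1 mouse genomic fragment, of 180 to 702 bases with a median of 464, to 1 transcribed barcode. The constructs fall on 3426 of the 3483 captured target sites, called targets, and 2108 targets with at least 5 of these constructs were tested as targets. A tested target had a median of 12 constructs and at most 108.

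The first letter of a target's name gives its class, and the classes R, B, H and L had 494, 461, 508 and 645 tested targets. The tables give only the letters; from knowledge of the study they stand for the tissue in which a site was DNase hypersensitive, namely retina, brain, heart or liver. The fragments were captured with biotinylated RNA baits from sonicated genomic DNA of the C57BL/6J strain and cloned into a barcoded vector. All cortex samples came from CD-1 mice that received the library in adeno-associated virus (AAV) by stereotactic injection at 4 to 6 weeks of age. Cortex was taken 4 to 5 weeks later, only GFP-positive regions were dissected, and each of the 3 replicates was 1 animal that gave 1 RNA and 1 DNA library. No uninjected animal and no empty construct was among the samples used here, so the DNA of the same animal is the only reference. The counts hold barcodes and no endogenous transcripts, so the labelled tissue and its cell types could not be checked against markers.

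DNase hypersensitive sites are stretches of open chromatin, and promoters, enhancers and insulators are found among them. An enhancer raises transcription from a promoter that may lie far away, and many enhancers act in few tissues. In a massively parallel reporter assay many fragments are tested together, outside their place in the genome, and a fragment that raises transcription gives more barcode RNA than its share of the delivered DNA would give.

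Activity is given in 2 ways. The ratio of an animal is the share of its RNA counts divided by the share of its DNA counts, so that 1 means equal shares. The log2 RNA/DNA is the fitted value of edgeR's quasi-likelihood test over the 3 animals, with the animal as a block and Benjamini-Hochberg adjustment, and a target or construct was called at an adjusted p under 0.05. The fitted scale is set by edgeR's scaling between libraries, and its zero lay at a ratio of 0.769, 0.788 and 0.759 in animals 1, 2 and 3. RNA libraries held 4000439 to 9674859 counts and DNA libraries 3999412 to 10769648, and all 6 were run on 1 lane.

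Barcodes of the constructs on which the account of B662 and R523 turns are printed first, because within each of these targets neighbouring fragments differed widely in activity. A barcode is the tag that was counted, not the fragment itself, whose sequence was not used here. Positions are those of the cloned fragment in the mouse build mm9, counted from 1, and no letters are capitalised because no part of a barcode is singled out. The fragments are in order of their first base.
B662 fragment a, chr15:91444509-91444872, minus strand, barcode: gtaatacatgtaatc
B662 fragment b, chr15:91444617-91445136, plus strand, barcode: ctgctgttacctgtg
B662 fragment c, chr15:91444618-91445085, plus strand, barcode: tcacaacaacctctc
B662 fragment d, chr15:91444635-91445067, plus strand, barcode: cctcatgaaggacca
B662 fragment e, chr15:91444638-91445169, minus strand, barcode: acacgcgcacagtct
B662 fragment f, chr15:91444642-91445064, plus strand, barcode: ccgatgccccccagt
B662 fragment g, chr15:91444684-91445093, minus strand, barcode: tatggcgggcactcc
R523 fragment a, chr2:29682017-29682567, minus strand, barcode: tgtccaccagcaaca
R523 fragment b, chr2:29682075-29682567, minus strand, barcode: gaggtagtgctcgct
R523 fragment c, chr2:29682152-29682634, minus strand, barcode: atggttacatcctcc
R523 fragment d, chr2:29682241-29682669, minus strand, barcode: gccctatacataagc
R523 fragment e, chr2:29682311-29682907, plus strand, barcode: ttgtagcgttcgtgt
R523 fragment f, chr2:29682434-29682892, plus strand, barcode: ccctatacgtacccc
R523 fragment g, chr2:29682436-29682936, minus strand, barcode: tgccgccacagatgg

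The first comparison asked which classes of fragment drove transcription in cortex. B constructs together held more of the RNA than of the DNA, with ratios of 1.69, 1.57 and 1.71 in animals 1, 2 and 3. R constructs gave 0.795, 0.846 and 0.813. H constructs gave 0.818, 0.841 and 0.796. L constructs gave the lowest ratio in every animal, 0.774, 0.804 and 0.750. The B ratios lay above 1 and above those of the other classes in 3 of 3 animals, and the groups did not overlap. Two-sided exact tests over the 3 animals gave p = 0.25 for each class, which is the smallest value that 3 animals allow. The class shares add up to the whole of each library, so a B ratio above 1 puts the other classes together below 1. The tests of the classes are therefore not separate results. When the targets called below were left out, a setting added after seeing the data, the B ratio was still above 1 in 3 of 3 animals at 1.16, 1.11 and 1.19, or 1.15 ± 0.041 (SD, n = 3). In this setting the shares were taken among the remaining constructs. Targets with fewer than 5 constructs were not tested as targets and stayed in. Over all classes, 22 such targets, B376 among them, held 35 constructs that were called singly. Their part in the B ratio was not separated.

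Among single targets, 63 of 2108 had higher RNA than DNA (2.99%, edgeR adjusted p under 0.05), and 0 (0%) had lower. They were 55 of 461 B targets (11.9%), 7 of 494 R targets (1.42%), 1 of 508 H targets (0.197%) and 0 of 645 L targets. At an unadjusted p under 0.05 there were 149 higher and 80 lower targets. DESeq2 called 90 higher and 26 lower, and scaling edgeR by total library size called 52 higher and 18 lower. Without animal 2, edgeR called 8 lower targets. The fitted zero above corresponds to a log2 ratio between -0.40 and -0.34 in the 3 animals, and targets with small changes therefore depend on the scaling.

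The median log2 RNA/DNA was 0.04 for B, -0.10 for R, -0.07 for H and -0.16 for L targets, against -0.09 for all. The 95th percentile was 2.45 for B targets and between 0.64 and 0.75 for the other classes. The upper quartile was 0.51 for B, 0.17 for R, 0.24 for H and 0.14 for L targets. These differences between classes were not tested. Without a fit, the ratio was above 1 in 3 of 3 animals for 132 of 2108 targets (6.26%), namely 75 B, 22 R, 22 H and 13 L targets. It was below 1 in 3 of 3 animals for 906 targets (43%), which were 35.4% of B, 49.0% of R, 41.3% of H and 45.1% of L targets. The fitted zero lay at ratios of 0.769, 0.788 and 0.759 in animals 1, 2 and 3, so a ratio below 1 can still lie above that zero. The share of B targets that were called was 9.20% with 5 to 9 constructs, 10.5% with 10 to 19, 17.0% with 20 to 39 and 15.6% with 40 or more. These 4 groups held 174, 143, 112 and 32 B targets, and the differences among them were not tested.

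The 63 called targets gave a large part of all barcode RNA. They held 21.1, 18.7 and 21.6% of the RNA counts in animals 1, 2 and 3 from 3.29, 3.34 and 3.32% of the DNA counts. The 5 highest alone gave 6.75, 4.93 and 5.81% of the RNA from at most 0.226% of the DNA. Fitted log2 RNA/DNA among them was 0.73 at the lowest, 2.13 in the median and 5.98 at the highest, and the SE lay between 0.147 and 0.439. Of the 63, 17 lay at 3 or above and 24 below 2. The highest ratio among the animals was a median of 1.52 times the lowest, and at most 3.40 times. The targets lay on 18 chromosomes.

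The highest target was B662, at chr15:91444486-91444785. Its 7 constructs held 59358, 45190 and 97016 RNA counts against 856, 2542 and 1825 DNA counts in animals 1, 2 and 3, and the ratios were 69.7, 36.4 and 44.5. The fitted log2 was 5.98 (SE 0.22, edgeR adjusted p = 1.36e-10). Animal 1 was highest and animal 2 lowest, and even the lowest ratio lay above every ratio of the other called targets except that of B880 in animal 1.

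B880, at chr17:73621306-73621605, was next with ratios of 38.7, 27.3 and 33.6 from 22 constructs. B793, at chr9:107863646-107863945, gave 25.3, 17.4 and 20.3 from 25 constructs. B645, at chr5:112750026-112750325, gave 21.3, 15.5 and 15.6 from 18 constructs. In these targets, as in B662, animal 2 was the lowest, but the lowest ratio of each was still more than 10. B922, at chr8:4256966-4257265, was instead highest in animal 2, with ratios of 13.6, 20.004 and 16.2 from 8 constructs. The log2 RNA/DNA of these 4 targets was 5.43, 4.77, 4.50 and 4.43, and the largest edgeR adjusted p among them was 5.89e-10 (B922).

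A second tier of 8 targets lay close together, between a log2 of 3.60 and 4.14, with ratios from 6.96 to 18.0. B701, at chr15:80108866-80109165, had the most constructs of any called target, 78, and the ratios 13.2, 12.0 and 14.0. B902, at chr2:149699106-149699405, gave 11.7, 10.3 and 11.1, and B885, at chr9:108039906-108040205, gave 12.5, 11.4 and 14.7. Ratios of 17.4, 9.81 and 10.5 were found for B620 at chr12:44928306-44928605. The animals overlapped between neighbours in this order, so their ranks are not resolved by 3 animals. B845, at chr4:46074506-46074805, gave 6.96, 10.7 and 10.7. B352 and the R targets R885 and R523 belong to the same tier and are taken up below.

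The remaining targets of the 20 highest were B883, B83, B813, B272, B195, B205 and B836, with log2 values from 3.32 down to 2.87. B83, at chr14:28083046-28083345, was the most even of these 7, with ratios of 7.28, 7.05 and 7.16 from 26 constructs. B205, at chr5:74648946-74649245, was the least even, with 5.99, 3.87 and 9.12 from 12 constructs. B195, at chr13:105752906-105753205, gave 8.59, 4.01 and 6.16. The ratios of the other 4 lay between 4.81 and 8.88 in every animal.

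The called targets outside the B class were 7 R targets and 1 H target. R885, at chr10:11037886-11038185, gave ratios of 15.4, 11.8 and 13.4 (log2 4.14, edgeR adjusted p = 4.13e-10), and R523, at chr2:29682406-29682705, gave 18.0, 11.7 and 9.81 (log2 4.06). R72, at chr4:117486446-117486745, gave 2.43, 2.97 and 3.92 from 12 constructs. R247, at chr12:36199386-36199685, gave 3.96, 4.08 and 1.99 from 5 constructs. These values stand well below those of R885 and R523. The last R targets were R462 (1.26, 3.11 and 2.74), R712 (2.46, 1.90 and 2.12) and R13 (1.31, 2.06 and 1.96). H929, at chr7:122610326-122610625, had the smallest called change, with ratios of 1.60, 1.05 and 1.21 over 59 constructs (log2 0.73, edgeR adjusted p = 0.029). Scaling by total library size ended the calls of R462 (adjusted p = 0.09), R712 (0.053), R13 (0.079) and H929 (0.22), and limma on construct means ended these 4 calls and that of R72 (adjusted p = 0.348). In edgeR, leaving out 1 animal ended the calls of R462 without animal 2 or 3 (adjusted p = 0.098 and 0.356), R712 without 1 or 3 (0.062 and 0.094), R13 without 3 (0.091) and H929 without 1 or 3 (0.231 and 0.226). R462 was also lost without the animal as a block (edgeR adjusted p = 0.051) and H929 with a DNA minimum of 50 (0.13).

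Pairs of animals were then compared across the targets of each class. Across the 461 B targets the log2 ratios of pairs of animals correlated at r = 0.519 to 0.618, and across the 508 H targets at 0.0495 to 0.131. The range was 0.197 to 0.313 for R and 0.0646 to 0.201 for L targets. These are descriptions across targets, which share the libraries and the depth of each animal. Across single constructs r was lower, 0.234 to 0.292 for B and 0.111 to 0.165 for all 38826. The DNA counts of the constructs correlated between animals at 0.862 to 0.914 on the log2 scale.

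Single constructs showed how unevenly RNA was sampled. RNA was counted for 57.5, 57.7 and 67.8% of the constructs in animals 1, 2 and 3, and animal 3 also had the deepest RNA library. The share with RNA was larger where more DNA had been delivered. For constructs with a mean DNA count of 10 to 30 it was 17.7, 18.1 and 26.1%, and for those with 500 or more it was 94.7, 94.1 and 97.8%. RNA was found in all 3 animals for 32.7% of the constructs, in 2 for 30.3%, in 1 for 24.5% and in none for 12.5%. Of the 9521 constructs with RNA in 1 animal only, 3087 had at least 100 counts there. The median construct had a fitted log2 RNA/DNA of -3.36, far below the median target. Constructs just inside the DNA minimum, with a lowest DNA count of 10 or 11, had summed ratios of 1.30, 1.05 and 0.925 (1017 constructs), and those just outside it, at 8 or 9, had 1.40, 1.15 and 1.05 (1021 constructs).

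Of the 38826 constructs, 258 had higher RNA than DNA (0.665%) and 3 had lower (0.00773%), by edgeR at an adjusted p under 0.05. B constructs made up 232 of the 258, R constructs 21, H constructs 3 and L constructs 2. These were 2.60% of 8940 B, 0.218% of 9627 R, 0.0323% of 9297 H and 0.0182% of 10962 L constructs. The called constructs had a median log2 RNA/DNA of 4.30. Their median DNA count, summed over 3 animals, was 731.5, against 391 for all constructs. In called targets, which held 1239 of the 38826 constructs, lay 218 of them (84.5%). Targets were called on sums of the same construct counts, so this overlap is not independent support. The numbers of called constructs depend on the test. DESeq2 called 1085 higher and 18087 lower. Without the animal as a block, edgeR called 485 higher and 6420 lower.

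The 10 highest constructs came from 6 B targets, and their barcodes are printed where they were not printed above. Of these, 3 belong to B880, 3 to B662 (fragments b, e and f) and 1 each to B885, B645, B701 and B376. The strongest B880 construct alone gave 49127, 51032 and 116574 RNA counts from 405, 1680 and 1117 DNA counts, which is a ratio of 122, 62.2 and 87.4. The next B880 construct gave 202, 43.0 and 56.9, and the third gave 193, 37.9 and 52.1. Both of these had at most 15 DNA counts in animal 1, the animal where they were highest. B662 fragment e and the constructs of B885 and B701 were also highest in animal 1. Their ratios there, 153, 101 and 178, came from 15, 17 and 14 DNA counts.
B880, chr17:73621332-73621736, minus strand, barcode: gactattctggcact
B880, chr17:73621297-73621727, minus strand, barcode: gagcaagctatcgtc
B880, chr17:73621056-73621562, plus strand, barcode: ttctaccacacctta
B376, chr8:14447357-14447777, minus strand, barcode: actaaactgcagaac
B885, chr9:108039943-108040302, plus strand, barcode: acctttggattaatt
B645, chr5:112750109-112750448, minus strand, barcode: accgacctctatccc
B701, chr15:80108507-80109091, plus strand, barcode: caaatatcgtcaatt

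Constructs outside the called targets numbered 40, and 35 of them lay in 22 targets with fewer than 5 constructs, which were not tested as targets. B376 was among them, and its construct gave ratios of 121, 50.8 and 60.3. The largest such R signal, singled out after its values were seen, was R243, where each of 3 constructs was called. Their ratios were 22.3, 49.3 and 39.5 for the fragment at chr10:74980322-74980735, 62.9, 18.3 and 29.1 for that at chr10:74980384-74980847, and 35.1, 20.2 and 27.5 for that at chr10:74980402-74980775. An H construct outside the called targets, in H647 at chr17:82243117-82243516, gave 16.8, 18.3 and 21.3.

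The 3 constructs called lower lay in R696, R288 and B427, and those of R696 and R288 were low in every animal while that of B427 was not. The R696 construct had 308, 0 and 17 RNA counts against 2328, 336 and 258 DNA counts. The R288 construct had 0, 0 and 1 RNA counts, and 2486 of its DNA counts came from animal 3. The B427 construct had 0, 1 and 2367 RNA counts, so that its ratio in animal 3 was 2.25. Its fitted log2 was -7.07 with the block and 0.21 without it. With animal 2 left out there were 4 such constructs, and with animal 1 or 3 left out 2 and 1.

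Within most called targets only some of the constructs were active. The share of a target's constructs with a ratio above 1 in 3 of 3 animals ranged from 4.55 to 87.5% over the 63 targets, with a median of 33.3%. In B701 it was 44 of 78, in B793 21 of 25 and in B880 17 of 22. The most active B701 construct had ratios of 178, 17.6 and 59.8, from 14, 140 and 77 DNA counts. The least active one, at chr15:80109065-80109410, had 0 RNA counts in each animal against 61, 184 and 192 DNA counts, although it overlaps the same window by 101 bases. In H929 the highest construct gave 10.3, 17.6 and 5.49 and did not pass edgeR's test (adjusted p = 0.095), and the lowest gave 0.038, 0 and 0. The highest construct of B369, at 57 constructs the third largest called target, gave 9.70, 6.53 and 4.48 (log2 3.14, edgeR adjusted p = 0.00037), and the lowest gave 0.059, 0 and 0.

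Some targets drew most of their RNA from 1 construct. In 14 of the 63 a single construct gave more than 50% of the RNA. With the construct of most RNA left out of every target, 54 of the 63 remained called and 9 did not, namely B352, B477, B744, R247, B683, B48, B583, R462 and R712 (B48 and B583 are named after their values were seen). The log2 RNA/DNA of B744 was 2.08 with and 2.23 without its top construct, and that of B48 was 1.96 and 1.81, so these lost the call and not the size of the difference. It went from 1.54 to 1.32 in R462, from 1.49 to 1.06 in R712, from 2.08 to 1.5001 in B477, and from 2.06 to 1.22 in R247 and to 1.12 in B683. Leaving out 1 animal also ended the edgeR calls of B477 without animal 2 (adjusted p = 0.051), B744 without 1 (0.098) and B683 without 2 or 3 (0.066 and 0.246). B683 was also lost with scaling by total library size (edgeR adjusted p = 0.054) and in limma on construct means (0.101), and B352 in limma (0.296). B352, at chr6:144966866-144967165, had ratios of 14.8, 10.6 and 14.5, yet 98.5% of its RNA came from 1 of its 7 constructs. That construct, at chr6:144966912-144967415, gave 23.2, 13.9 and 22.6, and without it the target's log2 RNA/DNA was -0.01 (edgeR adjusted p = 0.997). It ends at 144967415, and no other B352 fragment ends past 144967290. The fragment at chr6:144966857-144967290, on the other strand, gave 3.40, 2.28 and 0. B583 drew 96.8% of its RNA from 1 of 8 constructs, and was at -1.66 without it (adjusted p = 0.705).

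In B662 and R523 the most active fragments had a stretch of sequence in common that the others lack. Both were chosen after their values were seen, and no test was made of these groups. In B662 the 6 fragments b to g gave summed ratios of 72.2, 38.7 and 47.0. Fragment a gave 0.347, 0 and 0, although it covers 277 of the 300 window bases, more than any of the others. It ends at 91444872, while the 6 active fragments all reach 91445064, and the 192 bases from 91444873 to 91445064 are in all 6 and not in fragment a. These bases lie outside the target window, which ends at 91444785. Fragment a had only 29, 153 and 97 DNA counts. The active fragments d and e had fewer in every animal, with 18, 26 and 22 for d and 15, 57 and 32 for e.

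In R523, too, the most active fragments reach further in the same direction. Its 4 fragments a to d, which end inside the window, had summed ratios of 1.55, 0.483 and 0.964. The 3 fragments e to g, which end past it, had 51.9, 32.3 and 21.8. All 3 share the 223 bases from 29682670 to 29682892 that none of the first 4 holds. Fragment c, which lacks these bases, gave 5.43, 0.039 and 4.37, so it was above 1 in animals 1 and 3. The 2 groups did not overlap in any animal. Fragments e and f lie on the plus strand and a to d on the minus strand. Only fragment g, with 41.6, 18.0 and 8.18, stands for the second group on the strand of the first.

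In R885 the shorter fragments had the higher summed ratio. Its 5 fragments under 300 bases gave summed ratios of 29.8, 20.5 and 24.99, and 5 of 5 were above 1 in every animal. The 8 fragments of 300 bases or more gave 6.72, 6.02 and 7.01, and 4 of 8 were above 1 in every animal. These 4 include the longest, of 604 and 589 bases, and one of 372 bases that gave 18.2, 9.09 and 19.6. The 5 short fragments all lie between 11038020 and 11038325. The 604-base fragment, at 11037872 to 11038475, holds all these bases and gave 6.81, 8.30 and 4.40. A fragment at 11038062 to 11038498 holds most of them and gave 6.44, 0 and 0.338, from 15, 60 and 62 DNA counts. Another, at 11038038 to 11038488, holds more of them and gave 0, 5.35 and 5.87, from 28, 132 and 89 DNA counts. Fragments that start later gave 0.447, 0 and 0 (11038120 to 11038592) and 1.46, 1.10 and 0.165 (11038163 to 11038605). The part of length and that of position were not tested. This grouping was also made after the values were seen.

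Called targets that lie close together can share fragments. There were 7 pairs of called targets with less than 1000000 bases between them. The closest was B634 and B885 on chromosome 9, whose windows are 160 bases apart, and B813 lies 8520 bases before B634. B634, at chr9:108039446-108039745, was called with ratios of 3.09, 1.75 and 3.80 from 27 constructs. Its 15 fragments without any base of the B885 window gave 0.883, 0.604 and 1.09, or 0.860 ± 0.245 (SD, n = 3). The 12 that reach into the B885 window gave 6.52, 3.51 and 8.35, or 6.13 ± 2.44. The second group was higher in 3 of 3 animals, and the groups did not overlap. Of the 33 fragments assigned to B885, the 24 with at least 200 bases of its window gave 15.4, 14.8 and 19.8, and the 9 with fewer gave 5.92, 5.69 and 5.67. Only 1 of these 9 was above 1 in every animal, and their median construct log2 ratio was -3.37, against 3.64 for the 24. The fragments were grouped after their values were seen, so these are descriptions without a test.

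The next question was whether activity depended on how much of the target window a fragment covered. Fragments that hold the whole 300-base window were compared with those that hold part of it, within targets that have at least 2 of each. For B targets the median difference in construct log2 ratio was 0.06, 0.20 and 0.19 in animals 1, 2 and 3, or 0.15 ± 0.08 (SD, n = 3, 441 targets), higher in 3 of 3 animals (exact permutation test, two-sided, p = 0.25, the smallest possible). The means were -0.01 for R, -0.0003 for H and -0.02 for L targets, and the sign differed between animals in each (exact p = 1). Among the 53 called targets with both kinds, the difference was 1.49, 1.13 and 1.71, or 1.45 ± 0.29. These targets were chosen for the same RNA, so that value is a description.

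In the called B targets, summed ratios were lowest for fragments that hold 1 to 100 window bases; these targets were again chosen for the same RNA, so no test is given. Fragments with 1 to 100 window bases had a mean ratio of 2.65 ± 0.52 (40 constructs), those with 101 to 200 had 4.58 ± 0.46 (209), those with 201 to 299 had 7.88 ± 0.70 (425) and those with the whole window 6.55 ± 0.53 (427; SD, n = 3 animals). The animals of the lower 2 bins did not overlap with each other or with those of the upper 2. The whole window gave a lower ratio than 201 to 299 bases did, in 3 of 3 animals, but the median construct log2 ratio lay the other way, at 1.34 against 0.77. For the lower bins these medians were -1.85 and -1.62. Over all 63 called targets the summed ratios of the 4 bins were 4.12, 4.27, 7.35 and 5.94, and in animal 3 the first bin was above the second (4.64 against 4.27). In the called B targets, the shares of constructs without any RNA in the 4 bins were 7.50, 11.5, 2.82 and 1.41%. In tested B targets that were not called, the ratio lay between 0.788 and 0.862 in all 4 bins. In tested R, H and L targets that were not called, it lay between 0.736 and 0.788. These are shares of all passing constructs, called targets included, unlike the B ratio without called targets given above.

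Orientation and length were compared in the same way, as settings added after seeing the data. Plus-strand minus minus-strand fragments differed by -0.01 ± 0.13 in B targets (0.12, -0.13 and -0.03 in animals 1, 2 and 3; exact permutation p = 0.75), and the sign varied between animals in every class. Fragments of at least 464 bases, the median of all constructs, were compared with shorter ones of the same target. The difference, longer minus shorter, was -0.14 ± 0.09 in B, -0.06 ± 0.02 in H and -0.11 ± 0.07 in L targets. The longer ones were lower in 3 of 3 animals in each of these classes (exact permutation p = 0.25). In R targets the difference was -0.04 ± 0.07 and the sign varied (exact p = 0.50). With a DNA minimum of 50 the H difference turned to 0.008, and with a prior count of 0.5 it was -0.14 for H and -0.11 for R targets. In the called targets it was -0.46, -0.42 and -0.78.

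Last, the called targets were compared with the same targets in retina of CD-1 mice, where the library was electroporated ex vivo at birth and the tissue cultured for 8 days, in 3 replicates of 5 retinas. Of the 63 targets 61 could be tested for a difference between the tissues, and 18 were higher in cortex and 1 lower (edgeR interaction test; 5% and 8.35% of all 2000 targets tested). The 63 were chosen for high RNA in the same cortex libraries, which favours the cortex direction, so these counts are a description and not independent support. The 18 include B662, B880, B793, B645, B922, R885, B701 and B885 of the 10 highest. B352 (difference 0.52, SE 0.44, adjusted p = 0.475) and R523 (0.19, SE 0.54, adjusted p = 0.842) are the others of the 10 and did not pass. R72 was the one that was lower in cortex, by -5.79 (SE 0.29, adjusted p = 1.21e-07), with 379579 RNA counts in retina. The count of 18 fell to 8, 9 and 7 without cortex animal 1, 2 or 3, and was 55 with scaling by total library size. Tissue, delivery, age and sequencing lane cannot be told apart here.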

How the data were processed

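Barcode abundance was sequenced in RNA and DNA of cortex from 3 mice (6 libraries). Raw counts of each barcode were deposited by the authors, per the file headers. Per the file headers the authors also deposited the fraction of a library that each construct took, the ratio of RNA fraction to DNA fraction, and a log2 of this ratio after adding 0.001; recomputing the log2 values gave differences of at most 5e-10. Tools in the submitters' processing notes, without roles, are bedtools 2.22.1, SAMtools 0.1.19, Bowtie2 2.1.0 and FastQC, and the build is mm9. The construct table holds fragment positions and its deposited copies have the same content. Molecular identifiers were not used here.

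Tests on counts used R 4.3.3 and edgeR 4.0.16 (robust quasi-likelihood, trimmed mean of M values, Benjamini-Hochberg over all features, threshold 0.05), on construct counts and on sums over targets with at least 5 constructs. The animal was a block, since per the labels RNA and DNA of a replicate come from 1 animal; the deviations of paired libraries correlated at -0.044, 0.018 and 0.011, so the pairing rests on the labels. Ratios use all passing constructs, except that class ratios without the called targets use the remaining constructs. Log2 ratios of single constructs within targets use a prior count of 2. SEs were derived from edgeR's F statistic. Each p-value uses a spread estimated over all features. Target windows of 300 bases were recovered from fragment ends and deposited overlaps for 2953 of 3483 targets. No mm9 genome or annotation was used, so fragment sequences, gene context and motifs were not analysed here.

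Named targets are the 20 highest called ones with the same sign in 3 animals, the 5 lowest called (there were none), called targets outside the B class, and up to 5 whose call is lost without their top construct. Named constructs are the 10 highest called and the extremes of the 3 called targets with most constructs; others are said to be chosen after their values were seen. The targets, rules and tests were chosen with earlier results of these data known. Alternatives were other scalings, DESeq2 1.42.0, limma 3.58.1 on construct means, no block, other minimums and each animal left out. Other steps used pandas 2.3.3, numpy 2.4.6 and scipy 1.17.1 in Python 3.11.15.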

Additional observations from a re-analysis of the deposited data

Results flagged for a closer look

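For 15 of the named targets the cortex activity differed from that in retina in edgeR's interaction test over 12 libraries (adjusted p under 0.05); a difference is cortex minus retina on the log2 scale. The targets were named for their high cortex RNA, which the test uses again, so the direction is not independent of that choice. It was 10.47 for B662, 6.84 for B880, 3.94 for B793, 4.93 for B645, 10.38 for B922, 9.84 for R885, 3.50 for B701 and 4.27 for B885. It was 10.86 for B620, 3.14 for B902, 6.11 for B883, 3.75 for B813, 9.24 for B272 and 14.39 for B683. R72 lay the other way at -5.79. In retina B683 had 0 RNA counts, B620 had 2 and B922 had 9, so their fitted sizes depend on the prior count and are not bounds. B683 is also among the targets whose cortex call was lost without its top construct.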

How the results depend on the processing

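The 63 higher targets numbered 45 to 90 over the alternatives (B targets 40 to 69), and 49 to 78 with 1 animal left out. Other minimums changed the number of targets tested. A DNA minimum of 50 gave 45 of 1587 tested targets, with only 50 of the 63 tested. With 10 or more constructs it was 52 of 1345, and with 3 or more 75 of 2615. DESeq2 called all 63, edgeR without the replicate block 60 of them (67 in all), total library size 52 and limma on construct means 50; without animal 1, 2 or 3, 55, 59 and 47 of the 63 stayed called. Lower targets, 0 in the report, numbered 18 with total library size, 26 in DESeq2, 1 without the replicate block, 2 each with a DNA minimum of 50, with 10 or more constructs and with the top construct left out, 7 in limma and 0 to 8 with 1 animal left out. The 258 higher constructs became 1085 in DESeq2 and 485 without the replicate block, and 173 to 317 with 1 animal left out. The 3 lower constructs became 1 with relative log expression size factors, 8 with total library size, 18087 in DESeq2, 6420 without the replicate block, 1 with a DNA minimum of 50 and 1 to 4 with 1 animal left out. The class ratio without the called targets, with shares taken among the remaining constructs, was 1.15 for B, 0.948 for R, 0.990 for H and 0.943 for L. With a DNA minimum of 50 the whole-window difference was -0.065 for H and -0.10 for L targets. The 18 targets higher in cortex than in retina became 55 with total library size, 22 without the replicate block and 7 to 9 with 1 cortex animal left out. The log2 of B352 turned to -0.0090 without its top construct, and that of the B427 construct to 0.21 without the replicate block. Of the values of named targets under alternatives, 325 kept their side of the threshold, 31 lost it and 1 reversed. Except for left-out samples and minimums, the cause of these changes was not tested. Of constructs with a mean DNA count of 10 to 30, 53.0% gave no RNA in any animal, and at this depth a lack of activity is not detectable for single constructs.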
